A study of Mus musculus with 24 samples.

Results

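In GRIP1 knockout bone marrow-derived macrophages, open chromatin after interleukin 4 (IL4) was compared with open chromatin after dexamethasone (Dex), using 4 libraries per treatment. These 8 libraries were taken from 24 in the series by their genotype and treatment labels, and each was read at every peak of the shared peak set. Of 144411 peaks, 130103 passed the low-count filter and were tested, and 14308 were removed before testing. The assay was ATAC-seq, in which the Tn5 transposase inserts sequencing adapters into DNA that is not covered by nucleosomes, so that the number of reads in a peak measures how open that stretch of chromatin is.

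The knockout cells carried homozygous LysM-Cre with a floxed GRIP1 gene (GRIP1fl/fl) on the C57BL/6 background, and the wild-type cells carried the same homozygous LysM-Cre with unfloxed GRIP1 (GRIP1wt/wt), so every group of the study has the Cre. LysM-Cre is driven by the lysozyme 2 gene and acts in myeloid cells. Marrow came from male mice of 8 to 10 weeks and was differentiated for 5 days with L-cell conditioned medium. The knockout groups received 100 nM dexamethasone, 10 ng/ml IL4 or vehicle for 24 h, although 1 label of the vehicle samples gives 25 h. The labels number the 4 replicates of a group without saying whether they came from separate mice, so p-values measure only the spread between these samples. The wild-type groups with the same 3 treatments, also of 4 libraries each, are used below for the genotype comparison.

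Dexamethasone is a synthetic glucocorticoid that binds the glucocorticoid receptor, a ligand-activated transcription factor that recognises palindromic glucocorticoid response elements. IL4 binds a receptor on the cell surface, activates Janus kinases and leads to phosphorylation of the transcription factor STAT6, which binds its own palindromic sites. GRIP1 is a p160 coregulator encoded by Ncoa2 that binds the glucocorticoid receptor and other transcription factors and can activate or repress transcription with them. Both agents are known to move macrophages away from an inflammatory state.

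Promoter sequences are shown first because promoter peaks and distant peaks differed in direction (below), and because the STAT6 site can be read in them. The upstream bases of 4 RefSeq promoters that lie inside a peak called at least 2-fold apart are printed, 2 for each direction, chosen after their values were seen. Each is the 250 bases before the annotated transcription start, on the gene's strand, from RefSeq on GRCm38.p6, whose chromosomes are those of mm10, the build named for the files. Capitals mark each match to the STAT6 palindrome, the half-sites TTC and GAA with any 4 bases between them, which reads the same on both strands. Pdcd1lg2, encoding the inhibitory ligand PD-L2, is at chr19:29410669-29410918 on the plus strand. Tmem26, encoding a transmembrane protein, is at chr10:68723496-68723745 on the plus strand. F13a1, encoding the A subunit of coagulation factor XIII, is at chr13:37049214-37049463 on the minus strand. Lcn2, encoding the iron-siderophore carrier lipocalin 2, is at chr2:32387740-32387989 on the minus strand.
Pdcd1lg2: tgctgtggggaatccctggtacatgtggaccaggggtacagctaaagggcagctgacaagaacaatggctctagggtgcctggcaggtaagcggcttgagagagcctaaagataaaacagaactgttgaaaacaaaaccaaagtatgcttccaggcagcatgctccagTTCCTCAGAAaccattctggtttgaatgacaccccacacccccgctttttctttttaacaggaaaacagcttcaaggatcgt
Tmem26: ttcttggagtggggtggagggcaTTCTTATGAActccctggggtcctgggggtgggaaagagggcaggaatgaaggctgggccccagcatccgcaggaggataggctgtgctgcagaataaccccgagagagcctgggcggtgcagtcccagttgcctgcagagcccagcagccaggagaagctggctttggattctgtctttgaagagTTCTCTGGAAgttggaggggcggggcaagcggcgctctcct
F13a1: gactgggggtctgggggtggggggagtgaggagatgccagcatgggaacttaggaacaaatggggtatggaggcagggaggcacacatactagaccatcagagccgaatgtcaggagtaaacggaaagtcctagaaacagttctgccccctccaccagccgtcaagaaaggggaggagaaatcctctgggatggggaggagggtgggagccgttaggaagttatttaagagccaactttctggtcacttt
Lcn2: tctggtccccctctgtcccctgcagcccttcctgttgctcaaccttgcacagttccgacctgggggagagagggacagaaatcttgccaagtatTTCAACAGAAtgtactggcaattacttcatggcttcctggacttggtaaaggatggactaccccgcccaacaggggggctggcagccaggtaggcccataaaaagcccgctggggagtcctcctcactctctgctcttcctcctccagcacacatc

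Reads are given below as TMM-scaled CPM, that is counts scaled to a common library total after trimmed-mean scaling between libraries, and a log2 fold change is IL4 over Dex, so that positive values mean more open with IL4. A peak was called when edgeR's quasi-likelihood test gave a Benjamini-Hochberg adjusted p below 0.05 over all tested peaks. At the Pdcd1lg2 promoter peak, the IL4 libraries had 2.01, 3.70, 4.34 and 3.44 CPM and the Dex libraries 0.696, 0.825, 0.393 and 0.178 CPM (log2 fold change 2.74, SE 0.29, adjusted p = 1.02e-12). At the Tmem26 promoter peak, which holds a pair of STAT6 palindromes, the IL4 libraries had 20.7, 23.7, 23.6 and 23.7 CPM and the Dex libraries 5.87, 6.05, 6.37 and 5.86 CPM (1.93, SE 0.10, adjusted p = 1.9e-29). The F13a1 promoter peak, with no match to any searched motif in the printed bases, had the opposite order, with 4.03, 5.97, 4.87 and 3.83 CPM under IL4 and 14.7, 19.4, 20.4 and 21.0 CPM under Dex (-2.01, SE 0.12, adjusted p = 2.46e-26). The Lcn2 promoter peak, with 1 STAT6 palindrome, also had more reads with Dex, at 10.0, 8.80, 10.3 and 15.5 CPM against 4.03, 2.95, 4.78 and 4.38 CPM (-1.49, SE 0.25, adjusted p = 6.5e-05). The IL4 and Dex libraries did not overlap at any of these 4 peaks. Nor did they at 79.8% of all called peaks higher with IL4 and 76.6% of those higher with Dex. The STAT6 palindrome occurred in promoters of both directions. It is not typical of the IL4 side, where 8 of 74 promoter windows inside peaks at least 2-fold higher with IL4 held it (10.8%). The promoter peak of Klrb1a, not printed, was also higher with IL4 (3.54, SE 0.16, adjusted p = 1.8e-33). Its 250 bases before the start held no match to any searched motif.

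The targeted gene was examined in every group first. Ncoa2 had 21 tested peaks on chromosome 1. At chr1:13256160-13256636, an intragenic peak 116 kb from the nearest annotated start, the knockout vehicle libraries had 3.61, 3.05, 2.88 and 2.84 CPM and the wild-type vehicle libraries 6.30, 7.49, 7.37 and 6.39 CPM. The knockout was lower than wild type there under vehicle (log2 fold change -1.15, adjusted p = 1.01e-07), Dex (-1.04, adjusted p = 4.59e-08) and IL4 (-1.32, adjusted p = 5.83e-11), against 0.616%, 0.953% and 0.841% of all tested peaks called in either direction in those comparisons. The Ncoa2 promoter peak at chr1:13372246-13374626 had 87.6 ± 4.19 CPM in knockout vehicle and 86.1 ± 1.87 in wild-type vehicle (SD, n = 4), a log2 difference of 0.02 with an adjusted p of 0.945. Upstream of the gene, the peak at chr1:13423543-13423943 went the other way, with 7.83 ± 1.23 CPM in knockout and 1.04 ± 0.306 CPM in wild type under vehicle (SD, n = 4; 2.96, adjusted p = 6.42e-20). The labels do not say which exon is floxed, and read counts in open chromatin do not measure Ncoa2 RNA or GRIP1 protein.

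The 8 libraries held between 9863997 and 17845255 reads in peaks, with a median of 33 reads per tested peak and library over the 24 libraries. On the first principal component of the 8 libraries, which carried 60.7% of the variance, the IL4 libraries lay at 100 to 126 and the Dex libraries at -125 to -91.9. The second component, with 9.33%, set replicate 1 of both treatments apart, at 62.2 and 84.2 against at most -4.21 for the others. Leaving out knockout IL4 replicate 1 gave 27012 peaks for IL4 and 24593 for Dex, and leaving out knockout Dex replicate 1 gave 28285 and 26494, against 28548 and 26484 with all libraries. Peaks assigned to the 22 macrophage lineage genes summed to 3230 to 3370 CPM in the IL4 libraries and to 3300 to 3590 CPM in the Dex libraries, over 371 peaks. The 7 marker lists of other cell types, with 19 to 64 peaks each, summed to at most 439 CPM in any of the 8, reached by the dendritic cell markers with IL4. Such sums grow with the number of peaks, so they do not tell the cell types apart. Genes with no tested peak included the defining markers Cd79a, Pax5, Cd3d, Cd3g, Cd8a, Elane, Cpa3, Fcer1a, Col3a1, Dcn and Hbb-b1.

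More than 4 in 10 tested peaks differed between the treatments, and the differences were larger on the IL4 side. Of the 130103 peaks, 28548 (21.9%) were more open after IL4 than after Dex and 26484 (20.4%) were more open after Dex, which is 42.3% in either direction. At least 2-fold differences were found at 13246 peaks (10.2%) in favour of IL4 and at 1986 peaks (1.53%) in favour of Dex. At least 4-fold differences were found at 2454 and 122 peaks, and at least 8-fold differences at 282 and 14 peaks, in the same order. Called peaks had a median log2 fold change of 0.95 on the IL4 side and -0.46 on the Dex side, so that 46.4% and 7.5% of the called peaks passed 2-fold. At 46870 peaks (36.0% of those tested) the 4 IL4 libraries and the 4 Dex libraries did not overlap at all. With scaling by total counts alone, IL4 was higher at 33460 peaks and Dex at 19246, and the median of all peaks then lay at 0.09 on the log2 scale. With loess offsets, which remove a trend of the fold change with read depth, 10426 peaks were at least 2-fold higher with IL4 and 3165 at least 2-fold higher with Dex.

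The direction of the difference went with distance from the transcription start. Of 13648 tested peaks within 1 kb of an annotated start, 52.1% were higher with Dex and 7.06% were higher with IL4, with a median log2 fold change of -0.24. Of 97741 peaks farther away, 17.3% were higher with Dex and 24.9% with IL4, and of 6941 peaks more than 100 kb away the shares were 16.2% and 33.6%. These 6941 peaks are all listed in the authors' deposited table, because other peaks were given a start only within 50000 bases. Nearer groups mix listed and other peaks. Of the 71942 listed peaks, 19011 were higher with IL4 and 16723 higher with Dex. The part of this difference in peak sets in the shares beyond 100 kb was not tested. The promoter differences were small: 67 promoter peaks were at least 2-fold higher with Dex and 326 at least 2-fold higher with IL4. Peaks within 1 kb made up 29.6% of the peaks higher with Dex but 3.84% of those at least 2-fold higher with Dex, against 12.3% of all tested peaks with an annotated start. The promoter shift depended on the scaling. With loess offsets, 22.8% of promoter peaks were higher with Dex and 10.8% higher with IL4, with a median of -0.08, and 15.3% of the peaks higher with Dex lay within 1 kb.

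**Figure D1:**
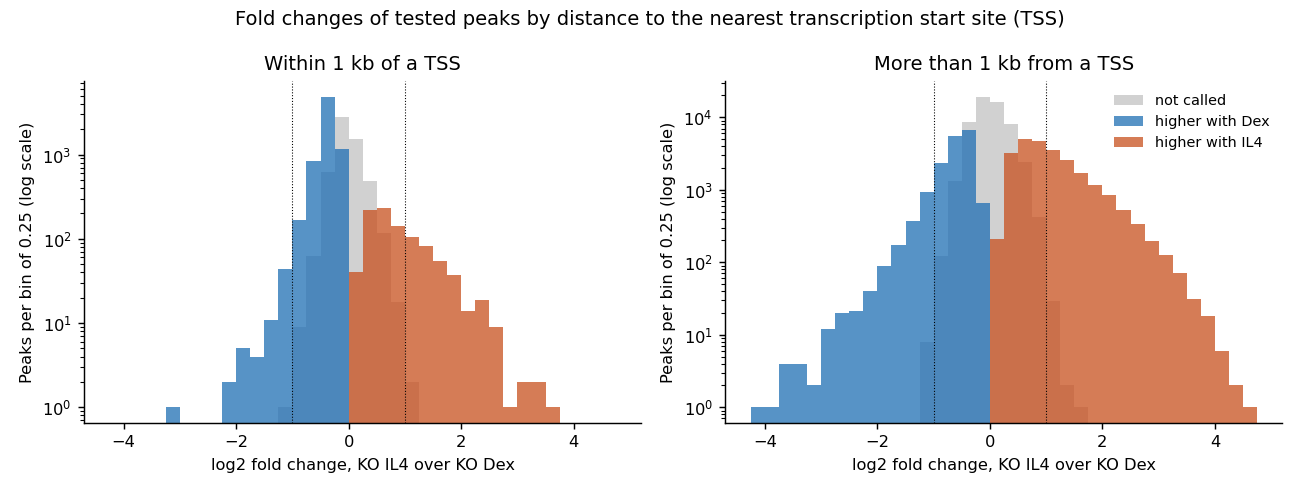
Number of tested peaks (log axis) by log2 fold change of knockout IL4 over knockout Dex in bins of 0.25, for peaks within 1 kb of a transcription start (left) and farther away (right); blue bars were called higher with Dex, orange bars higher with IL4 and grey bars were not called, drawn over each other, and dotted lines mark 2-fold. Near starts most called peaks lie between -1 and 0, while away from starts the IL4 side reaches 4.61 and the Dex side -4.0.

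Levels in vehicle differed between the directions. Over all tested peaks the median was 2.98 CPM with IL4, 2.69 CPM with Dex and 2.77 CPM in knockout vehicle. The 13246 peaks at least 2-fold higher with IL4 had a median of 2.76 CPM with IL4, 0.929 CPM with Dex and 1.26 CPM in knockout vehicle. The 1986 peaks at least 2-fold higher with Dex had a median of 3.99 CPM with Dex, 1.54 CPM with IL4 and 2.13 CPM in vehicle. Their median lengths were 331 and 379 bases, against 435 bases over all tested peaks. Of those listed in the authors' deposited table, 10.2% of the IL4 peaks and 16.7% of the Dex peaks carried its FANTOM enhancer mark, against 13.8% of all tested peaks listed there.

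Promoter windows of 300 bases, 250 before and 50 after the start, were searched on both strands. STAT6 palindromes were present in 45 of 406 windows (11.1%) inside peaks higher with IL4, in 360 of 8320 (4.33%) inside peaks higher with Dex and in 576 of all 11470 windows inside tested peaks (5.02%), against 6.95% of the 32851 windows in the table. Among windows in peaks at least 2-fold apart the shares were alike, at 8 of 74 for IL4 and 4 of 39 for Dex (10.8% and 10.3%). The AP-1 site TGACTCA was present in 11 of these 74 windows (14.9%) and 8 of these 39 (20.5%), against 3.98% of all windows in tested peaks. The PU.1 site GAGGAAGT was present in 7 and 3 of them (9.46% and 7.69%), against 3.72%. The glucocorticoid response element, AGAACA and TGTTC with any 3 bases between them, was present in 1 of the 11470 windows. Windows in peaks at least 2-fold apart also held less G and C. Their medians were 52.5% for IL4 and 53.7% for Dex, against 62.7% over all windows in tested peaks. In peaks called at any fold the medians were 56.7% for IL4 and 63.0% for Dex. The part of G and C content in the motif shares was not tested. These shares are a description without a test.

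Peaks were named by the gene of the authors' deposited table or, outside that table, by the nearest listed start within 50 kb, so that a name gives position and not a regulated gene. Named peaks of Fkbp5, Zbtb16, Tsc22d3 and Dusp1, genes with an established glucocorticoid response, were more open with Dex. The Fkbp5 peak at chr17:28518014-28518761, 0.862 kb from a start of this receptor co-chaperone, had 43.4, 48.4, 48.2 and 52.4 CPM with Dex and 6.04, 4.53, 5.31 and 6.02 CPM with IL4. The fold change was -3.14 on the log2 scale (SE 0.10, adjusted p = 1.06e-44), and the knockout vehicle libraries, at 3.90 to 6.67 CPM, lay on the level of the IL4 libraries. Of 28 tested Fkbp5 peaks, 22 were higher with Dex and 1 was higher with IL4.

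Zbtb16, which encodes the zinc-finger repressor PLZF, had the most negative fold change of all tested peaks. Its intragenic peak at chr9:48723286-48724099, 112 kb from a start, had 25.3, 26.9, 20.5 and 23.5 CPM with Dex against 1.44, 1.81, 1.5 and 1.17 CPM with IL4 (-4.0, SE 0.16, adjusted p = 2.04e-31). Tsc22d3, encoding the anti-inflammatory mediator GILZ, had 15.4, 16, 15.9 and 16.8 CPM with Dex and 2.97, 2.72, 2.92 and 2.5 CPM with IL4 at chrX:140513341-140513765 (-2.53, SE 0.13, adjusted p = 2.08e-30). At the Dusp1 peak chr17:26512509-26513452, near the gene of a MAP kinase phosphatase, the levels were 56.4, 63.8, 66.1 and 68.7 CPM with Dex and 32.1, 31.6, 33.4 and 30.2 CPM with IL4 (-1.01, SE 0.07, adjusted p = 1.72e-22). The Dex and IL4 libraries were apart at each of these peaks, as at 76.6% of all called peaks higher with Dex. The vehicle libraries, with means of 1.75, 2.88 and 31.7 CPM, were close to the IL4 libraries. Of all tested peaks, Zbtb16 had 9 of 14 higher with Dex and 1 with IL4, Tsc22d3 18 and 0 of 22, and Dusp1 12 and 0 of 19.

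Cd163, which encodes the haemoglobin-haptoglobin scavenger receptor, had 5.07, 7.15, 9.99 and 9.36 CPM with Dex and 0.863, 0.680, 0.531 and 0.626 CPM with IL4 at chr6:124320239-124320759 (-3.56, SE 0.22, adjusted p = 1.33e-25). Here the IL4 libraries were also below vehicle, at 1.44 ± 0.439 CPM (SD, n = 4; -1.01 for IL4 over vehicle, adjusted p = 0.013), and the Dex libraries above it (2.55, adjusted p = 8.16e-19), against 31.0% (17.0% up, 13.9% down) and 13.6% (6.97% up, 6.63% down) of all tested peaks called in those comparisons, which share their treated libraries with the main one. Of 11 Cd163 peaks, 9 were higher with Dex and 0 were higher with IL4. F13a1 had 12 of 31 peaks at least 2-fold higher with Dex, and Klhl6 had 10 of 20.

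Named peaks of the IL4-inducible genes Cish, Socs1, Irf4, Arg1 and Retnla were more open with IL4. Each is the peak of its gene with the smallest p in this contrast. Of all tested peaks, Cish had 4 of 5 higher with IL4 and 0 with Dex, and Socs1 9 and 1 of 18. Irf4 had 8 and 4 of 21, Arg1 8 and 1 of 12 and Retnla 2 and 0 of 4. Cish, a STAT-induced inhibitor of cytokine signalling, had 22.1, 27.5, 29.6 and 29.9 CPM with IL4 and 2.59, 2.68, 2.44 and 2.49 CPM with Dex at chr9:107307539-107308418 (3.42, SE 0.13, adjusted p = 9.5e-40). Socs1, another feedback inhibitor of Janus kinases, had 5.75, 6.88, 9.03 and 8.13 CPM with IL4 and 0.497, 0.757, 0.865 and 0.770 CPM with Dex at chr16:10700298-10700585, in Clec16a and 85.1 kb from the start (3.32, SE 0.21, adjusted p = 1.84e-25). At both peaks vehicle was at the Dex level, with 2.92 ± 0.645 and 0.789 ± 0.284 CPM (SD, n = 4).

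Irf4, a transcription factor of alternative activation, had 16.5, 20.4, 17.8 and 19.2 CPM with IL4 and 6.07, 4.40, 5.90 and 5.57 CPM with Dex at chr13:30787972-30788756 (1.77, SE 0.12, adjusted p = 1.44e-23). Arg1, encoding arginase 1, had 23.6, 25.5, 32.0 and 27.1 CPM with IL4 and 10.8, 10.3, 12.8 and 9.83 CPM with Dex at chr10:24927351-24928481 (1.31, SE 0.10, adjusted p = 5.72e-17). Retnla, encoding the secreted protein RELMalpha, had low levels at chr16:48842353-48842600, with 0.959, 1.66, 1.15 and 1.41 CPM under IL4 and 0.298, 0.275, 0.315 and 0.118 CPM under Dex (2.40, SE 0.40, adjusted p = 5.14e-07). No IL4 library overlapped a Dex library at these 3 peaks, as at 79.8% of all called peaks higher with IL4.

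Chil3, a chitinase-like lectin widely used as a marker of IL4-treated macrophages, had its strongest peak on the other side. At chr3:106170180-106171263, 3.16 kb from the start, the Dex libraries had 20.2, 14.6, 19.0 and 21.7 CPM and the IL4 libraries 5.18, 4.76, 5.49 and 4.54 CPM (-1.92, SE 0.12, adjusted p = 1.29e-25). Of 3 tested Chil3 peaks, 2 were at least 2-fold higher with Dex and 1 was higher with IL4. The neighbouring family member Chil4 had 5 of 10 peaks higher with IL4 and 0 with Dex. Reads of these near-identical chitinase-like genes may not be told apart where their sequences match. The peak of the mannose receptor gene Mrc1 with the smallest p was higher with Dex, at 15.5 ± 2.85 against 10.2 ± 0.756 CPM (SD, n = 4; -0.62, SE 0.11, adjusted p = 6.69e-07). Of 12 tested Mrc1 peaks, 3 were higher with Dex and 1 with IL4, and their median log2 fold change was 0.01. In wild type 2 were called in each direction.

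**Figure D2:**
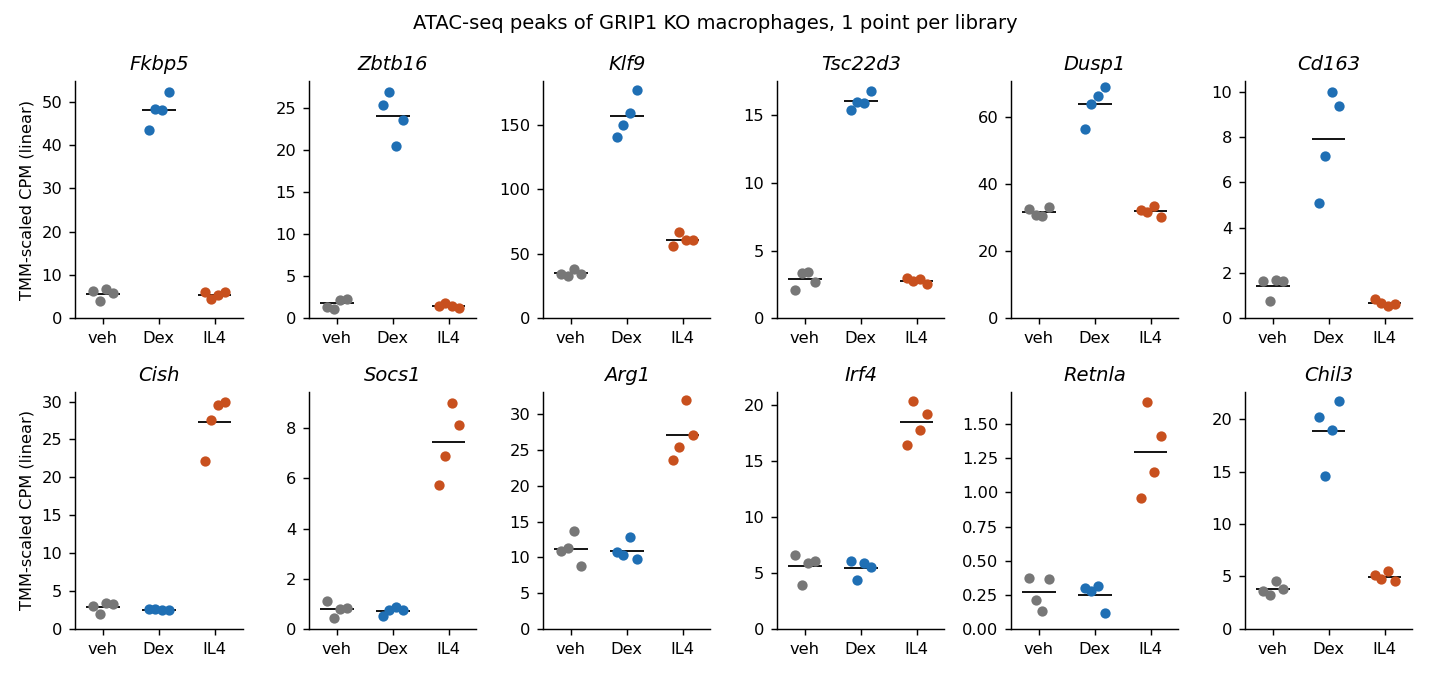
Reads in 12 named peaks as TMM-scaled CPM (linear axis from 0) in the knockout vehicle, Dex and IL4 libraries, 1 point per library and a bar at the mean of 4. The upper row and Chil3 have their highest points under Dex, with 43.4 to 52.4 CPM at Fkbp5, and the remaining peaks of the lower row under IL4, with 22.1 to 29.9 CPM at Cish.

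The largest fold changes on the IL4 side lay at genes outside the classical marker set. Smurf1, encoding a ubiquitin ligase, had 5.47, 9.29, 7.61 and 7.27 CPM with IL4 and 0.298, 0.275, 0.472 and 0.178 CPM with Dex at chr5:144961842-144962118 (4.61, SE 0.26, adjusted p = 2.67e-28), the largest value of all tested peaks. Peaks at Ptk2, the gene of focal adhesion kinase (4.25), Zc3h12a, the gene of the RNase Regnase-1 (4.13), Tex9 (4.08), Mmp12, the gene of macrophage elastase (4.06), Spp1, the gene of osteopontin (4.0), Cdcp1 (3.94), Mir3961 (3.92) and Thrb (3.90) followed. On the Dex side, a peak 4.43 kb from the start of Ube2s had 7.76, 8.39, 7.71 and 10.5 CPM with Dex and 0.671, 0.453, 0.442 and 0.626 CPM with IL4 (-3.97, SE 0.21, adjusted p = 3.76e-30). With Zbtb16, Ube2s and Cd163, the first 10 also held peaks at Dock10 (-3.73), Hs6st1 (-3.65), Rab31 (-3.40), Selenop, the gene of the selenium carrier selenoprotein P (-3.35), Mctp2 (-3.30), Ahcy (-3.27) and Cyp7a1 (-3.16). All of these are among the 10 genes with the largest change in each direction among called peaks with at least 5 CPM in the higher group and no overlap of libraries.

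At several named peaks both treatments departed from vehicle, in opposite directions. At Lpl, the gene of lipoprotein lipase, the peak at chr8:68911510-68911975 had 4.80 ± 0.312 CPM in vehicle, 2.14 ± 0.624 with Dex and 10.7 ± 1.78 with IL4 (SD, n = 4). At Maf, the gene of a macrophage transcription factor, the peak at chr8:115614005-115614755 had 21.5 ± 2.02 CPM in vehicle, 35.2 ± 2.77 with Dex and 13.6 ± 0.968 with IL4 (SD, n = 4). The Igf1 peak at chr10:87858119-87861034, near the gene of the growth factor IGF1, had 20.6 ± 4.10, 13.4 ± 1.0 and 38.5 ± 2.49 CPM in the same order (SD, n = 4). Each of these 6 departures from vehicle was called, with adjusted p between 2e-15 and 2.74e-06. Of all tested peaks, 31.0% were called for IL4 against vehicle and 13.6% for Dex against vehicle. These comparisons share their treated libraries with the IL4 against Dex contrast by which the peaks were chosen. That choice favours departures in opposite directions, so the calls are a description. At other peaks both treatments moved the same way by different amounts: at Klf9, a Krüppel-like factor gene, vehicle had 35.0 ± 2.28 CPM, IL4 61.1 ± 4.49 CPM and Dex 157 ± 15.2 CPM (SD, n = 4), so that IL4 lay below Dex (-1.36, SE 0.07, adjusted p = 9.33e-29) although it was above vehicle (0.81, adjusted p = 1.43e-14).

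Gene lists were described by counts of called peaks, read against 21.9% higher with IL4 and 20.4% with Dex over all tested peaks. The lists were chosen with earlier results of these data known, so their shares are a description and not a test. The 28 glucocorticoid receptor target genes had 352 tested peaks, of which 176 (50.0%) were higher with Dex and 51 (14.5%) higher with IL4, with a median log2 fold change of -0.41. Of the 28 genes, 27 had a peak higher with Dex, 17 had one higher with IL4 and 16 had both. Over all 16605 genes with a tested peak, 64.2% had a peak higher with Dex and 56.3% one higher with IL4, with 6.71 peaks per gene on average against 12.6 in the list. Most of the peaks of the transcription factor genes in the list (Zbtb16, Klf9, Hif3a and Cebpd) were higher with Dex, 24 of 36, and all 5 peaks of Hif3a were. Il1r2, the gene of a decoy receptor for interleukin 1, had 8 of 13 peaks higher with Dex, and Ddit4, an inhibitor of mTOR signalling, 9 of 15. Some genes of the list went against it. Sgk1, a serum- and glucocorticoid-inducible kinase, had 10 of 27 peaks higher with IL4 and 4 with Dex, Anxa1, the gene of annexin A1, had 5 and 1 of 12, and Angptl4 had 3 and 0 of 5.

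The 33 IL4 and STAT6 target genes had 410 tested peaks at 32 genes, with 159 (38.8%) higher with IL4, 66 (16.1%) higher with Dex and a median of 0.19. The 3 feedback inhibitors, Cish, Socs1 and Socs2, had 13 of 27 peaks higher with IL4 and 1 with Dex, while 0 of the 4 Socs2 peaks were called. Pdcd1lg2 had 14 of 19 peaks higher with IL4, the pattern-recognition lectin gene Clec7a 5 of 5, Batf3 7 of 11 and the lipid-sensing receptor gene Pparg 13 of 29, each with 0 higher with Dex. A peak at Itgax, the gene of the integrin CD11c, had 19.1 ± 2.86 CPM with IL4 and 2.21 ± 0.354 CPM with Dex (SD, n = 4; 3.12, SE 0.14, adjusted p = 3.73e-35). Alox15, a lipoxygenase gene, and Ccl24, a chemokine gene, had 3 of 5 and 3 of 4 peaks higher with Dex and 0 higher with IL4.

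Genes of the 2 pathways themselves were less one-sided. The IL4 receptor, JAK and STAT list had 45 of 203 peaks higher with IL4 and 57 with Dex (22.2% and 28.1%), and with total counts alone the order was the other way, 26.1% and 19.7%. The receptor subunit gene Il13ra1 had 8 of 15 peaks higher with Dex and 0 higher with IL4. The Stat6 promoter peak at chr10:127641850-127644244 had 66.9 ± 1.61 CPM under Dex against 46.2 ± 1.68 under IL4 (SD, n = 4; -0.53, SE 0.06, adjusted p = 1.09e-11). Il4ra, encoding the IL4-binding subunit, had 3 of 15 peaks on the IL4 side and 7 on the Dex side. The glucocorticoid receptor, chaperone and coregulator list had 44 of 273 peaks higher with IL4 and 91 with Dex (16.1% and 33.3%). The Fkbp5 peaks already counted made up 22 of the latter. Nr3c1, the receptor gene itself, had 6 of 23 peaks higher with IL4 and 5 with Dex. Among the p160 coactivator genes, Ncoa1 had 3 and 5 of 18, Ncoa2 had 3 and 9 of 21 and Ncoa3 had 5 and 6 of 27 peaks higher with IL4 and with Dex.

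Ncoa2 peaks still responded to the treatments in the knockout. The upstream peak at chr1:13423543-13423943 had 12.4, 13.7, 13.5 and 16.5 CPM with Dex and 4.70, 6.95, 6.02 and 3.83 CPM with IL4 (-1.39, SE 0.13, adjusted p = 1.36e-15). Wild-type cells had lower levels and a log2 fold change of -1.55 there (interaction 0.17, SE 0.28, adjusted p = 1.0). An intragenic peak at chr1:13299665-13299973 had 5.56, 5.44, 5.31 and 5.48 CPM with IL4 and 1.29, 1.79, 2.36 and 1.84 CPM with Dex (1.56, SE 0.19, adjusted p = 7.03e-11). The treatments did not overlap at either peak, as at 76.6% of all called peaks higher with Dex and 79.8% of those higher with IL4.

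Tissue repair and matrix genes had the highest share of peaks open with IL4 among the 13 biological lists. Of 227 peaks, 105 (46.3%) were higher with IL4, 21 (9.25%) were higher with Dex, with a median of 0.37. All 13 Mmp12 peaks, 26 of 33 Igf1 peaks and 6 of 7 peaks of Hbegf, the gene of an EGF-like growth factor, were higher with IL4, and none of these genes had a peak higher with Dex. Fibroblast and stroma markers, 27 peaks at 5 genes, had 10 (37.0%) higher with IL4 and 2 with Dex, and their summed level was 122 to 133 CPM with IL4 and 103 to 112 CPM with Dex. Mast cell and basophil markers had 12 of 26 peaks (46.2%) higher with IL4, 9 of them at Kit, with sums of 68.8 to 77.7 CPM against 47.9 to 52.6 CPM. Their part in the gene-list results was not tested.

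Lipid genes were divided, also within roles. The 9 uptake and transport genes with tested peaks had 64 of 135 peaks higher with IL4 and 19 with Dex (median 0.31), led by the fatty acid translocase gene Cd36 (25 of 36), Lpl (18 of 22) and the cholesterol exporter gene Abcg1 (13 of 20). These 3 genes held 56 of the 64, and the other 6 had 8 of 57 peaks on the IL4 side and 17 on the Dex side, a split made after the values were seen. The 9 oxidation genes with tested peaks had 13 of 49 on the IL4 side and 7 on the Dex side (median 0.12). The 10 synthesis and control genes had 24 of 105 higher with IL4 and 30 with Dex (median -0.01). The related exporter gene Abca1 had 9 of 24 peaks higher with Dex and 2 higher with IL4. Apoe, encoding apolipoprotein E, had both of its peaks higher with Dex, and the stronger had 23.3 ± 1.04 CPM under Dex against 11.3 ± 1.14 CPM under IL4 (SD, n = 4; -1.04, SE 0.10, adjusted p = 3.61e-13). Acadl, a gene of fatty acid oxidation, had a peak at chr1:66859501-66859778 with 6.04 ± 1.61 CPM under Dex and 1.43 ± 0.524 under IL4 (SD, n = 4; -2.12, SE 0.20, adjusted p = 1.25e-15).

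Efferocytosis and scavenger receptor genes, which take up dead cells and modified lipoproteins, divided gene by gene. The list had 121 of 409 peaks higher with IL4 and 111 with Dex (29.6% and 27.1%; 36.2% and 22.5% with total counts alone). Itgb3, an integrin gene, had 17 of 18 peaks higher with IL4 and Mfge8, a bridging protein gene, 8 of 13, while Cd163, Stab1 (7 of 8), Lrp1 (10 of 14) and Msr1 (11 of 22) had most of their called peaks higher with Dex. The complement genes C1qb and C1qc had 3 of 4 and 2 of 2 peaks higher with Dex. Mertk, the gene of a phosphatidylserine-dependent receptor kinase, had strong peaks of both kinds. Its intragenic peak at chr2:128745724-128747816 had 51.5 ± 0.753 CPM under Dex against 24.7 ± 3.09 under IL4 (SD, n = 4; -1.06, SE 0.07, adjusted p = 8.37e-23), and its peak at chr2:128770778-128771673, 0.087 kb from an annotated start, had 2.70 ± 0.326 and 8.10 ± 0.720 CPM (SD, n = 4; 1.6, SE 0.14, adjusted p = 1.09e-16).

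Antigen presentation and costimulation genes had 45 of 119 peaks higher with IL4 and 18 with Dex (37.8% and 15.1%, median 0.17). Ciita, the master regulator of MHC class II genes, had 7 of 12 peaks higher with IL4 and 1 with Dex. Icosl, Cd86 and Cd80, genes of costimulatory ligands, and H2-DMa, a peptide-loading gene, had more peaks higher with Dex than with IL4, 6 of 10 at Icosl. The Icosl promoter peak had 28.7, 28.7, 23.6 and 27.4 CPM with Dex and 9.97, 7.93, 10.2 and 9.62 CPM with IL4 (-1.53, SE 0.09, adjusted p = 3e-26). Dendritic cell markers, 64 peaks at 8 genes, were higher with IL4 at 21 (32.8%) and higher with Dex at 9 (14.1%), with summed levels of 404 to 439 CPM with IL4 and 354 to 361 CPM with Dex. Counted only over the 40 peaks named in the authors' deposited table, the shares were 22.5% and 20.0%. Cd209a and Batf3 are in this list and in the IL4 target list. The part of these markers in the antigen presentation counts was not tested.

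Inflammatory genes were mixed. The cytokine and NF-kB list had 79 of 370 peaks higher with IL4 and 103 with Dex (21.4% and 27.8%), an order that total counts alone turned to 24.9% and 19.7%. Among NF-kB subunit genes, Nfkb1 (16 of 37) and Rel (5 of 10) had peaks higher with IL4, while Rela had 1 and 2 of 4 peaks on the IL4 and Dex sides and Relb 0 and 1 of 2. The IkB family genes Nfkbiz (14 of 30) and Bcl3 (5 of 7) and the inflammasome sensor gene Nlrp3 (8 of 9) had peaks higher with Dex. Neutrophil markers divided too: S100a8, S100a9 and Ly6g had 9 of 16 peaks higher with Dex and 0 higher with IL4, and Cxcr2 had 5 of 8 higher with IL4. Interferon-stimulated genes had 23 of 106 peaks higher with IL4 and 12 with Dex (21.7% and 11.3%).

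KLF genes had 45 of 227 peaks higher with IL4 and 76 with Dex (19.8% and 33.5%). Klf9 had 7 of 8 and Klf2 9 of 17 peaks higher with Dex, while Klf4 had 15 higher with IL4 and 18 with Dex of 56. Klf6 had peaks of both directions more than 2-fold apart. Its peak at chr13:6108943-6109888 had 23.1 ± 2.28 CPM with IL4 and 9.38 ± 0.553 with Dex (SD, n = 4; 1.31, SE 0.09, adjusted p = 2.71e-22), and its peak at chr13:5892747-5893281 had 5.57 ± 0.563 and 15.2 ± 1.98 (SD, n = 4; -1.44, SE 0.12, adjusted p = 6.71e-19). Clock genes had 31 of 132 peaks on the IL4 side and 33 on the Dex side, and this order was reversed with total counts alone (34 and 27), with loess offsets (30 and 22) and with the authors' gene names only (25 and 19 of 83). The 4 called peaks of Per1, a period gene with a known glucocorticoid response, were all higher with Dex. The macrophage lineage list had 85 and 89 of 371 peaks on the IL4 and Dex sides, an order also reversed with total counts alone (108 and 60), with loess offsets (95 and 78) and with the authors' gene names only (70 and 69 of 273). Within it the 11 transcription factor genes had 74 of 285 peaks higher with IL4 and 53 with Dex, with Mitf at 24 and 2 of 45, and the 11 surface marker genes had 11 of 86 and 36 of 86. The lipopolysaccharide coreceptor gene Cd14 had all 5 of its peaks higher with Dex.

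**Figure D3:**
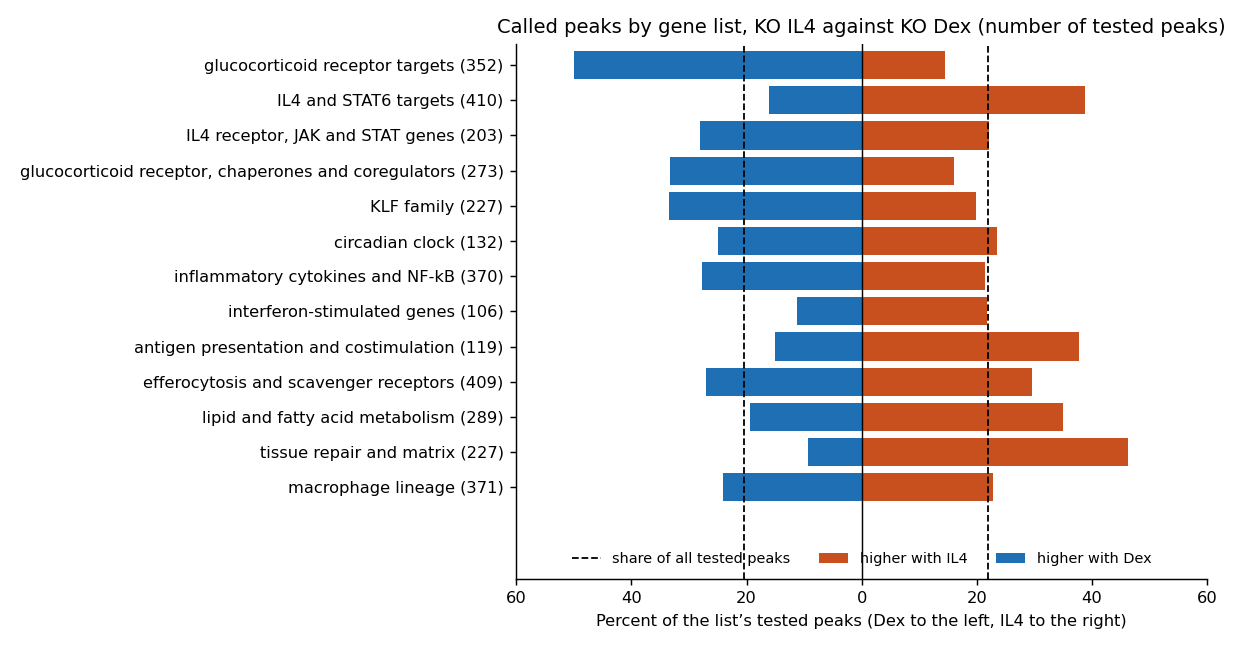
Percent of the tested peaks of each of 13 gene lists called higher with IL4 (orange, right) or higher with Dex (blue, left), with the number of tested peaks in parentheses and dashed lines at the shares over all tested peaks, 21.9% and 20.4%. Glucocorticoid receptor targets reach 50.0% on the Dex side and tissue repair and matrix genes 46.3% on the IL4 side. The lists were chosen with earlier results of these data known.

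The same contrast in wild-type macrophages, which shares no library with the knockout contrast, called IL4 higher at 30400 peaks (23.4%) and Dex higher at 28216 (21.7%). Wild-type Dex replicate 2 had the fewest reads in peaks of the 24 libraries, 5820149, and the most peaks without reads, 2.57%. On the fourth principal component of the 24 libraries it lay at -127, and the others at -26.4 to 44.6. In both genotypes 24086 peaks were called higher with IL4, which is 84.4% of the knockout calls and 79.2% of the wild-type calls. Another 21482 were called higher with Dex in both, 81.1% and 76.1% of the calls, and 9 peaks were called in opposite directions. Across the 130103 peaks, which are not independent replicates, the log2 fold changes of the genotypes had a Pearson correlation of 0.894, given as a description. The peaks at least 2-fold higher with IL4 in the knockout had a median of 1.43 there and 1.52 in wild type, and those at least 2-fold higher with Dex had -1.21 and -1.23. When chosen by the wild-type contrast instead, the medians were 1.49 in wild type and 1.32 in the knockout for IL4, and -1.23 and -1.0 for Dex, so each difference depends on the genotype that chose the peaks.

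The difference between genotypes was tested directly. The interaction, knockout IL4 over Dex against wild-type IL4 over Dex, was called at 4 peaks (0.00307% of those tested), 2 in each direction, with 6085 peaks (4.68%) at an unadjusted p under 0.05. DESeq2 called 3 and 3224 at an unadjusted p under 0.05. Leaving out each library in turn gave 3 to 7 calls, with 7 without knockout Dex replicate 1 or 2 and 3 without wild-type Dex replicate 2. With the replicate number added to the model as a factor, 47 peaks were called, 22 up and 25 down, so the count depended on the model. The edgeR interaction had a median SE of 0.27 on the log2 scale, against 0.19 for the knockout contrast. In simulated data with these library sizes, the interaction test recovered 46.3% of 67 peaks changed 2-fold and 78.8% of 66 changed 3-fold. The changed peaks were drawn without those of the lowest counts, and the unchanged peaks had no treatment difference. These shares therefore do not hold for every tested peak. Of 9455 peaks called in the knockout but not in wild type, 1 was among the 4, and of 13039 called in wild type but not in the knockout, 2 were. A call in 1 genotype alone is therefore no sign that the genotypes differed.

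**Figure D4:**
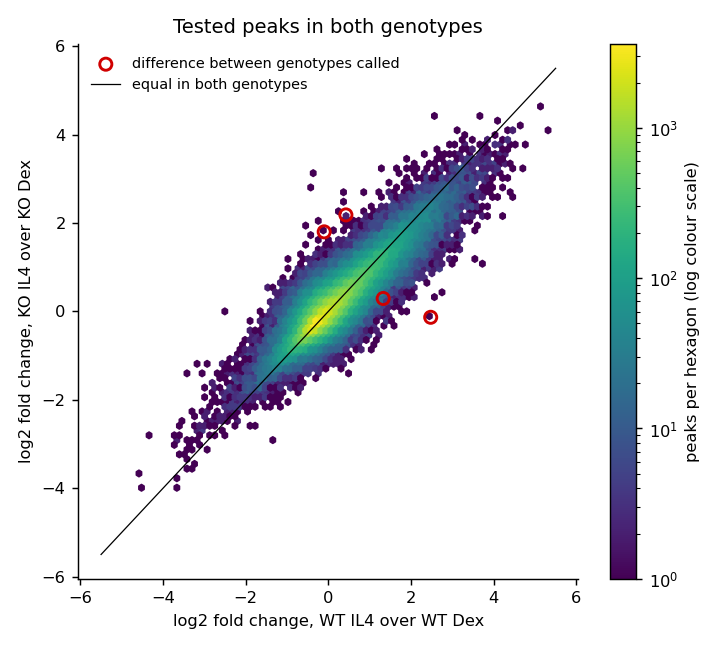
Log2 fold change of IL4 over Dex in knockout (vertical) against wild type (horizontal) for the tested peaks, binned into hexagons coloured by the number of peaks on a log scale, with the line of equal values. Red circles mark the 4 peaks at which the difference between genotypes was called, 2 above and 2 below the line.

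At the Nrg4 peak chr9:55294966-55295299, 11.5 kb from the start of this growth factor gene, opening under IL4 was found in wild-type cells. The wild-type IL4 libraries had 8.18, 8.25, 7.95 and 8.38 CPM and the knockout IL4 libraries 1.82, 1.59, 1.68 and 1.64 CPM. The Dex libraries had 2.46, 0.739, 1.15 and 1.17 CPM in wild type and 1.79, 1.93, 1.42 and 2.13 CPM in the knockout. The IL4 over Dex change was 2.48 in wild type and -0.13 in the knockout (interaction -2.61, SE 0.30, adjusted p = 2.54e-08). In the knockout the IL4 and Dex libraries overlapped, and in wild type they did not.

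The reverse was found at chr9:63927777-63928824, a peak with no gene assigned. The knockout IL4 libraries had 8.34, 12.2, 11.1 and 10.2 CPM and the wild-type IL4 libraries 2.40, 2.28, 3.47 and 3.35 CPM. With Dex the knockout had 3.58, 3.65, 2.44 and 2.55 CPM and wild type 2.11, 2.58, 3.94 and 3.17 CPM (interaction 1.90, SE 0.24, adjusted p = 4.34e-07). Only the knockout IL4 libraries stood above the others at this peak. 

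The Vegfc peak chr8:54272947-54273591, 196 kb from the start of this lymphatic growth factor gene, was lower in the knockout under every treatment. The knockout had 9.40, 9.97, 7.34 and 9.39 CPM with IL4 and 2.69, 2.27, 1.97 and 1.30 CPM with Dex, and wild type 17.3, 14.3, 18.1 and 13.9 CPM with IL4 and 14.0, 9.42, 10.5 and 11.9 CPM with Dex. The IL4 over Dex change was 2.18 in the knockout and 0.42 in wild type (interaction 1.76, SE 0.21, adjusted p = 7.12e-08), and in vehicle the knockout was at 5.27 ± 1.30 CPM and wild type at 14.8 ± 1.20 (SD, n = 4; -1.48, adjusted p = 2.73e-13). The fourth peak, chr11:24295023-24295703 near 4933430M04Rik, had 7.10, 8.99, 6.73 and 7.51 CPM with IL4 and 5.87, 6.67, 4.40 and 7.58 CPM with Dex in the knockout, where the libraries overlapped. In wild type it had 10.5, 11.2, 11.2 and 9.22 CPM with IL4 and 3.45, 3.88, 4.76 and 4.53 CPM with Dex (interaction -1.04, SE 0.19, adjusted p = 0.0234). This last call was lost in 9 of 16 fits that each left out 1 library, those without knockout IL4 replicate 1, 3 or 4, knockout Dex replicate 2 or 4, wild-type IL4 replicate 2 or 3, or wild-type Dex replicate 1 or 2, with adjusted p up to 0.428, and with all libraries it was the call that DESeq2 did not make (adjusted p = 0.102). The other 3 peaks were called in all 16 and by DESeq2.

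Peaks around 3 of these 4 differed between genotypes at rest more often than peaks overall. Within 1000 kb, 6 of 67 other peaks around Vegfc (8.96%), 12 of 194 around Nrg4 (6.19%) and 9 of 233 around the unassigned peak (3.86%) were called between knockout and wild-type vehicle, against 0.616% of all tested peaks, and 0 of 90 were called around 4933430M04Rik. The part of these surroundings in the 4 results was not tested. None of the glucocorticoid receptor or IL4 peaks named above was among the 4. Of the Fkbp5, Zbtb16, Cish, Socs1, Arg1 and Chil3 peaks, the wild-type log2 fold changes were -3.37, -4.54, 3.29, 3.49, 1.28 and -2.12.

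**Figure D5:**
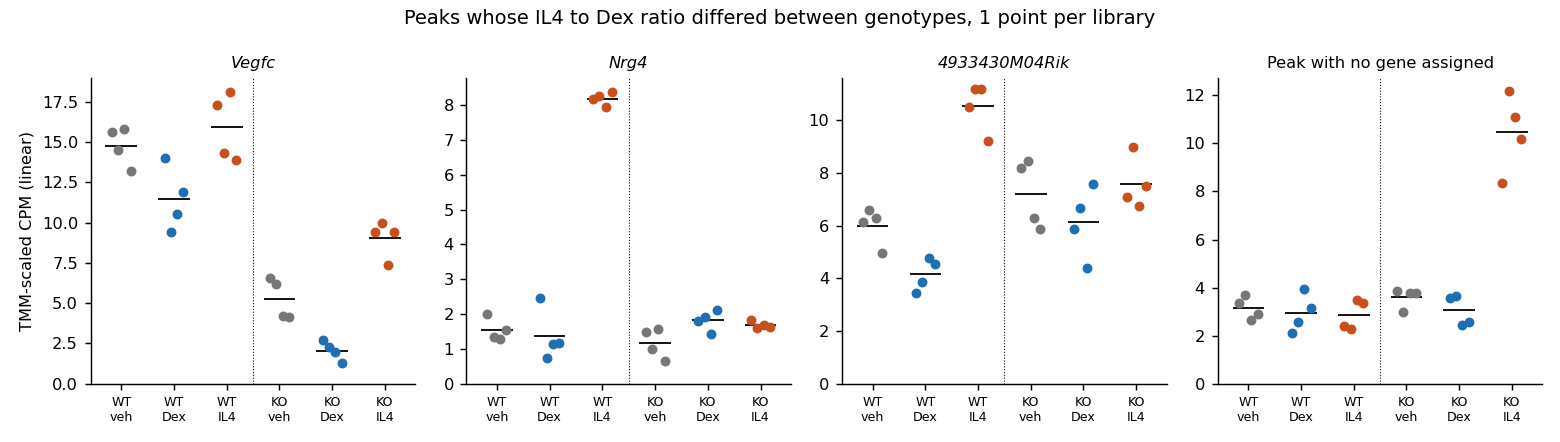
Reads as TMM-scaled CPM (linear axis from 0) in all 24 libraries at the 4 peaks whose IL4 over Dex change differed between genotypes, wild type left and knockout right of the dotted line, 1 point per library and a bar at the mean of 4. At Nrg4 the wild-type IL4 libraries sit at 7.95 to 8.38 CPM and the knockout IL4 libraries at 1.59 to 1.82 CPM, and at the peak with no gene the knockout IL4 libraries sit at 8.34 to 12.2 CPM.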

How the data were processed

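The build was mm10, and edgeR, featureCounts, MACS2, Bowtie2, SAMtools and fastp are listed, without roles or versions, in the submitters' processing notes. The authors deposited a matrix of whole-number read counts for 144411 peaks and 24 libraries, not normalized, and a table for 71942 of the peaks with gene names, distances to the transcription start and, per the file headers, log2 fold changes, F scores and p-values of their own comparisons, none of which compares IL4 with Dex in the knockout. Only the names, distances and enhancer mark of that table were used, together with a check of its log2 fold changes. It holds no peak of 1000 bases or longer, and 13379 such peaks are in the matrix.

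Peaks were filtered with filterByExpr and scaled with TMM (factors 0.935 to 1.07), and all 24 libraries were fitted together by edgeR 4.0.16 (R 4.3.3, limma 3.58.1) with robust quasi-likelihood tests, 1 coefficient per group. SE is the absolute log2 fold change over the square root of F. Names came from the deposited table for 71929 peaks, and 48057 others were given the nearest start listed there within 50000 bases; 24425 had none. The 110 named peaks are the 10 genes with the largest change in each direction, the 2 genes with the smallest p per list and direction, the smallest-p peak of 21 anchor genes, the 5 genes with the smallest interaction p in each direction, the called interaction peaks and all Ncoa2 peaks; some of them are not reported here. Members, lists and anchors were chosen with earlier results of these data known. In simulated counts over 127077 peaks, the knockout contrast recovered 74.6% of 67 peaks changed 2-fold, drawn without those of the lowest counts. The unchanged peaks had no treatment difference, while 42.3% of the real tested peaks were called, so this share need not hold for the real contrast. Alternatives were total-count and DESeq2 scaling, DESeq2 1.42.0, loess offsets, no filter, fewer libraries or peaks, a replicate block and leaving out each library. The search for motifs at peak centres was not run, since no genome of this build was used here, and RefSeq promoter windows took its place, a choice made after seeing the data.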

Additional observations from a re-analysis of the deposited data

Results flagged for a closer look

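Among the 110 named peaks, 17 of 220 groups of 4 libraries held 1 library far from the other 3, and chance alone gives about 1 in 20 groups. Of the 17, 15 are given here. In the knockout Dex group these were Tex9 in replicate 3 (0.944 CPM, the others 0.237 to 0.298), Il4ra in replicate 1 (21.5, others 23.0 to 23.2), Rel in replicate 1 (3.58, others 2.05 to 2.25), Nfkbiz in replicate 4 (55.5, others 45.3 to 45.9), Stac in replicate 1 (1.09, others 0.551 to 0.619), and 2 Ncoa2 peaks, in replicate 4 (3.97, others 3.03 to 3.18) and in replicate 1 (8.16, others 12 to 12.3). In the knockout IL4 group they were Mir3961 in replicate 1 (6.23 CPM, others 9.29 to 9.75), Jak1 in replicate 4 (9.70, others 8.99 to 9.11), Nfkb1 in replicate 1 (11.2, others 15.8 to 16.4), Tnfaip3 in replicate 4 (2.89, others 3.17 to 3.19) and Stac in replicate 1 (1.53, others 0.704 to 0.755). Replicate 2 of that group was apart at 3 Ncoa2 peaks, with 3.93 CPM (others 3.17 to 3.29), 1.81 CPM (others 1.24 to 1.25) and 3.32 CPM (others 5.13 to 5.48). Replicate 1 of both treatments, which stood apart on the second principal component, accounts for 7 of the 15 given here.

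The difference between genotypes in the IL4 over Dex change was called at Vegfc (1.76), Nrg4 (-2.61), 4933430M04Rik (-1.04) and the chromosome 9 peak with no gene (1.90). Among the next smallest p-values were Cxcr4 (0.57, adjusted p = 0.216), Ldlrad4 (-0.71, adjusted p = 0.0833), 4930459C07Rik (-0.82, adjusted p = 0.139) and Rnf144b (-0.77, adjusted p = 0.142), which did not pass the threshold.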

How the results depend on the processing

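The knockout counts kept their order in every alternative. With loess offsets, 3165 peaks were at least 2-fold higher with Dex, and 1244 were when only the peaks listed by the authors were tested, against 8091 at least 2-fold higher with IL4 there. Scaling moved gene lists and promoters. With total counts alone, the percent of peaks higher with Dex was 42.0 for glucocorticoid receptor targets, 10.7 for IL4 and STAT6 targets, 19.7 for IL4 receptor, JAK and STAT genes, 24.9 for the receptor, chaperone and coregulator list, 25.6 for KLF genes, 19.7 for cytokine and NF-kB genes, 4.72 for interferon-stimulated genes, 22.5 for efferocytosis, 5.29 for tissue repair and 16.2 for macrophage lineage genes, and the percent higher with IL4 was 36.2 for efferocytosis and 29.1 for macrophage lineage genes. With loess offsets, KLF genes had 26.9% and clock genes 16.7% higher with Dex. Peaks within 1 kb of a start were 6.26% (IL4) and 15.3% (Dex) of the called peaks with loess offsets and 4.28% and 31.0% with total counts. The Ncoa2 promoter peak went from -0.29 to 0.02 with loess offsets. The causes were not tested. Leaving out each library in turn gave 25597 to 28285 peaks higher with IL4, 23430 to 26494 higher with Dex, 12875 to 14409 and 1968 to 2282 at least 2-fold, and 3 to 7 interaction peaks, 7 without knockout Dex replicate 1 or 2. The interaction count was 7 with the 16 IL4 and Dex libraries alone. A replicate block, with the replicate number as a factor, gave 30539 and 29269 peaks and 47 interaction peaks, 22 up and 25 down. The labels do not say that a number pairs samples. Deviations of same-numbered IL4 and Dex libraries correlated at 0.145, 0.0779, 0.0433 and 0.122 in the knockout. In wild type they correlated at 0.195, 0.0623, 0.0556 and 0.0814. The numbers were not taken as pairs, although in both genotypes each IL4 library correlated best with the Dex library of its own number. Each knockout vehicle library also correlated best with the knockout IL4 library of its number, at 0.107, 0.0594, 0.0443 and 0.0907. Against the knockout Dex libraries, vehicle replicate 3 did not, at 0.00337 with Dex replicate 3 and 0.0575 with Dex replicate 1. In the simulation, whose changed peaks left out those of the lowest counts, the interaction test recovered 13.4% of 1.5-fold differences. The real tested peaks had a median of 33 reads per peak and library.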
